A study of Mus musculus with 6 samples.

Results

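Livers of mice that ate a fast-food diet containing canertinib for 2 months were compared with livers of chow-fed mice of the same study. The pair was chosen by its titles and consists of 2 of the 6 arrays of the series. Each array carried RNA pooled from 3 to 4 livers of male C57BL6/J mice that were 6 to 8 weeks old when feeding began. The control group ate chow for 2 months. The treated group ate a fast-food diet, of which fat made up 21% and sucrose 34% of the weight, with 0.2% cholesterol added, and drank water with 18.9 g/L glucose and 23.1 g/L fructose. Canertinib, an irreversible inhibitor of the ERBB receptor tyrosine kinases, was mixed into that diet for the whole period at an estimated 80 mg/kg per day. Diet and drug therefore differed together between the pair. Another 2-month array, from mice on the fast-food diet without drug, is given beside them. The 5-month study had the same 3 groups, but canertinib was injected on 5 days per week during the last 5 weeks, and the diet group received injections of vehicle (PBS). With 1 pooled array per group, sizes are given without error or test and have no replicate check, and precision is limited by how few arrays there are.

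The epidermal growth factor receptor, EGFR, is abundant on hepatocytes, where its ligands drive growth, survival and metabolic signalling through the ERK, AKT and STAT pathways. The liver also makes most plasma proteins, and during inflammation interleukin-6 and interleukin-1 shift it to acute phase proteins through STAT3, NF-kB and C/EBP factors. In male mice, pulses of growth hormone acting through STAT5 maintain a set of male-biased genes for steroid, lipid and pheromone-binding proteins. Fast-food feeding is used as a model of fatty liver, in which fat synthesis, lipid storage and inflammation genes are known to be altered.

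Signals are in MAS5 units on a linear scale, and 221.4, the 50th percentile of all values, was used as a floor. A gene was counted as measured when either array of a comparison was above the floor, which held for 13085 of 18194 genes, and a gene at the floor on 1 array is given as at least N-fold. Hepatocyte identity was clear on both arrays, with albumin, Alb, at 59532 on chow and 92449.7 with canertinib. The actin control probes, which read RNA integrity as the excess of 3' over 5' signal in log2, gave 1.19 on the canertinib array and 0.94 on chow. The Gapdh control probes, read in the same way, hardly differed, with -0.20 on the canertinib array and -0.18 on chow. Spiked control transcripts averaged 0.57 higher in log2 on the canertinib array and 0.31 higher on the fast-food array than on chow. The actin and spiked control values differed together with the groups, and their part in the results was not tested.

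Among the differences of the canertinib-treated liver from chow were more transcript of acute phase, metallothionein and myeloid genes. Others were less transcript of male-biased genes and of some drug-metabolising and peroxisomal genes. Of the 13085 measured genes, 531 (4.06%) exceeded chow liver by 2-fold or more and 383 (2.93%) were below it by as much, and the median log2 difference was -0.02. Differences of 10-fold or more were found for 19 higher and 14 lower genes. For scale, the fast-food array without drug had 2.15% of its measured genes at least 2-fold higher and 1.68% lower than the same chow array. Between the chow arrays of the 2 studies, without diet or drug, 1.39% were higher and 1.44% lower at 5 months. When the 5-month chow array took the place of the 2-month one, 548 genes (4.21%) were higher and 477 (3.66%) lower.

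**Figure D1:**
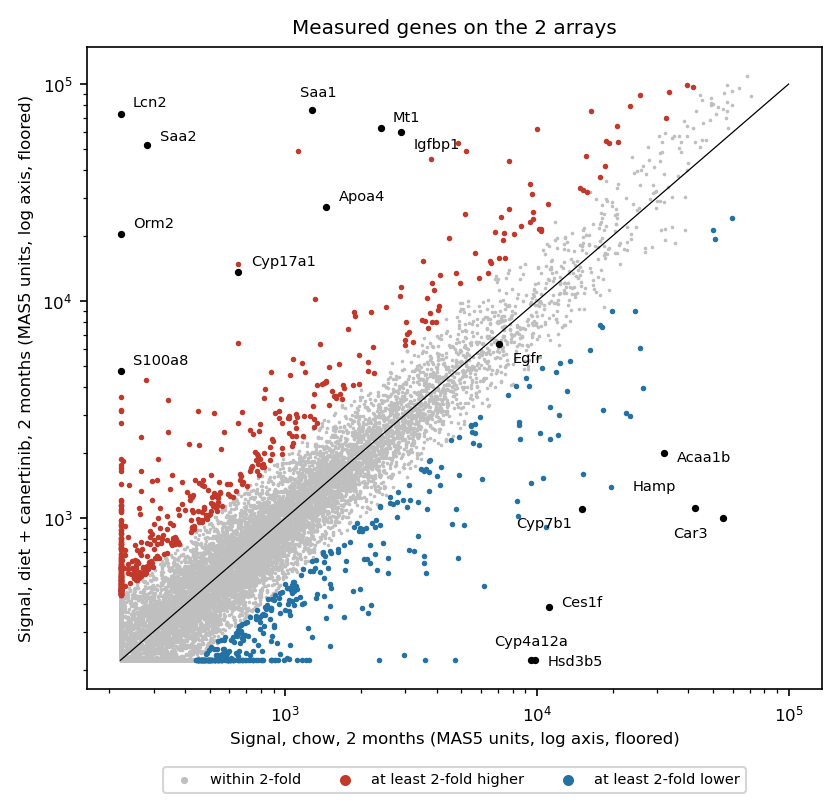
Signals of the 13085 measured genes on the 2-month chow array (horizontal, log axis) and the 2-month canertinib array (vertical, log axis), with values below 221.4 drawn at that floor; the line marks equal signal. Lcn2, Saa2 and Mt1 lie far above the line, Car3, Hamp and Hsd3b5 far below it, and Egfr lies close to it.

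Acute phase genes, most of them secreted by hepatocytes, were higher with canertinib as a group. Of 32 measured members, 23 were at least 2-fold higher and 0 lower, with a median log2 difference of 1.77. On the fast-food array alone the median of these genes was 0.20, with 5 at least 2-fold higher. Lipocalin 2, Lcn2, which withholds siderophore-bound iron from bacteria, had signals of 130.0, 1743 and 73181 on chow, fast food and canertinib. It was below the floor on chow and became one of the brightest genes of the canertinib array, at least 331-fold higher. Serum amyloid A2, Saa2, had 283, 1451 and 52413 in the same order and was 185-fold higher, while Saa1 had 1278, 9674 and 76182 and was 59.6-fold higher. These apolipoproteins of inflammation are near-identical copies, so their probe sets may not separate them. The orosomucoid genes Orm2 and Orm3 encode plasma binding proteins of the acute phase. Orm2 had 170.2, 682 and 20349, at the floor on chow, and was at least 91.9-fold higher, and Orm3 had 341, 1121 and 3502 and was 10.3-fold higher.

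The next 3 secreted proteins of this group were within 2-fold of chow on the fast-food array. Serum amyloid P, Apcs, a pentraxin, had 5208, 4222 and 48950.2 on chow, fast food and canertinib and was 9.4-fold higher with canertinib. The fibrinogen-like hepatokine gene Fgl1 had 3806, 2139 and 44984, so it was lower than chow on the diet and 11.8-fold higher with canertinib. The protease inhibitor gene Serpina3n had 4870.0, 7298 and 53704 and was 11-fold higher. Receptors and signalling genes were also among the higher members. Il1r1, the interleukin-1 receptor, had 192, 161 and 2730.3 and was at least 12.3-fold higher. Its log2 difference was 1.81 averaged over its probe sets in place of 3.62. Socs3, the feedback inhibitor of STAT3 signalling, had 226, 163 and 1825 and was 8.08-fold higher. The fibrinogen chain gene Fgb and haptoglobin, Hp, already abundant in chow liver, had log2 differences of 1.21 and 1.32, which were 0.61 and 0.72 after quantile normalization. The chow arrays of the 2 studies themselves differed in this group. Saa1 was 13263 on the 5-month chow array against 1278 at 2 months, Saa2 was 1588 against 283 and Lcn2 609 against 130.0. Against the 5-month chow array the log2 differences of the canertinib liver were 2.52 for Saa1, 5.04 for Saa2 and 6.91 for Lcn2, and the median of the list was 1.65.

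Promoter sequence is shown for 5 of these genes because they share a short match to a C/EBP-type element. Sequences are from RefSeq on GRCm38.p6, read 5′ to 3′ on the gene's own strand. Each is a window of 100 bases within the 250 bases upstream of the start site, with the match to TTGCNCAA in capitals.
Saa1: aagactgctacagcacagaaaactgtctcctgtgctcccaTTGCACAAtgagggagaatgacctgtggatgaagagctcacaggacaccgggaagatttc
Saa2: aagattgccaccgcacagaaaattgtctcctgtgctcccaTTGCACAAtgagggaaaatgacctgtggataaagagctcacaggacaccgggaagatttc
Lcn2: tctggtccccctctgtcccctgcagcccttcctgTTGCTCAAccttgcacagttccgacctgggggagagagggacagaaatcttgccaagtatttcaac
Orm2: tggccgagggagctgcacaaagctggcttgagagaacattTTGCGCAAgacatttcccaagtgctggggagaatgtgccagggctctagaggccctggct
Orm3: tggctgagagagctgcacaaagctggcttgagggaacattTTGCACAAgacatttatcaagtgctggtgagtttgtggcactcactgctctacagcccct
The windows lie at chr7:46743103-46743202 on the minus strand for Saa1, chr7:46751610-46751709 on the plus strand for Saa2 and chr2:32387890-32387989 on the minus strand for Lcn2. For Orm2 and Orm3 they lie at chr4:63362289-63362388 and chr4:63355997-63356096 on the plus strand. Counted from the start site, the match begins at -182 in Saa1, -183 in Saa2, -216 in Lcn2, -120 in Orm2 and -121 in Orm3. Searched on both strands of the 250 bases upstream of the start site, TTGCNCAA was found in 8 of 27 acute phase genes that matched a promoter by symbol. It was present in 2.61% of all 32851 promoters. Counted per gene, with a match in any of its promoters, it was present in 2.82% of 10531 measured genes with a promoter. By the same count it was present in 7.09% of 409 at least 2-fold higher genes and 3.17% of 315 lower genes. These are matches of letters, described without a test.

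Metallothionein genes and the zinc transporter genes Slc39a14 and Slc30a1 were higher with canertinib, and hepcidin genes were lower. The metallothionein genes Mt1 and Mt2, whose small cysteine-rich products bind zinc and copper, were within 2-fold of chow on the diet alone. Mt1 had 2391, 1769 and 62837 on chow, fast food and canertinib and was 26.3-fold higher, and Mt2 had 1122, 1852 and 49326 and was 44-fold higher. Slc39a14, which imports zinc and iron into hepatocytes, had 3541, 3138 and 15287 and was 4.32-fold higher. Averaged over their probe sets, Slc39a14 and Slc30a1 had log2 differences of 1.02 and 1.01. Slc39a4, Slc30a10 and Mtf1 of the same list had -0.17, 0.40 and -0.38. Of the 7 measured members of this list, 4 were 2-fold or more higher and 0 lower. Their median was 1.66 against the 2-month chow array and 0.33 against the 5-month one, and the zinc exporter gene Slc30a1 had 0.33 against the latter and 1.66 against the former.

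Hepcidin is the liver hormone that blocks iron export, and its genes were far lower with canertinib. Hamp had 42511, 29289.8 and 1115 on chow, fast food and canertinib and was 38.1-fold lower. Both of its probe sets had the same direction. Its paralogue Hamp2 had 2958, 4589.9 and 235 and was 12.6-fold lower, although the probe sets of these near-identical copies may not separate them. Only 1 of the 2 probe sets of Hamp2 was measured, and averaged over both its log2 difference was -1.83 in place of -3.66. The transferrin receptor gene Tfrc, whose product takes up iron-loaded transferrin, had 648, 1425 and 6405 and was 9.88-fold higher. Averaged over its probe sets the log2 difference of Tfrc was 1.21 in place of 3.31. Scara5, a ferritin receptor gene, had 279.6, 359 and 4336 and was 15.5-fold higher by its brighter probe set, whereas its other measured probe set did not share the direction. The iron and heme list had 21 measured members, of which 2, Tfrc and the iron importer Slc11a2 with 1.28, were 2-fold or more higher and 2, Hamp and Hamp2, lower. Slc11a2 had 0.33 averaged over its probe sets.

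The Hamp promoters are shown because hepcidin is itself known as an acute phase gene, and its transcript was low where Saa1 and Lcn2 were high. Capitals mark TTCNNNGAA, the general STAT-type letters, in RefSeq sequence of GRCm38.p6.
Hamp: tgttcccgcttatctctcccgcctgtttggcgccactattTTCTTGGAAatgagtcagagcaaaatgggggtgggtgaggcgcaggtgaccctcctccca
Hamp2: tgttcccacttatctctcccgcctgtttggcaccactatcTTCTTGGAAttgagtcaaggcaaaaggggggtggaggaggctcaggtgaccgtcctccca
The windows lie on the minus strand at chr7:30944067-30944166 for Hamp and chr7:30924216-30924315 for Hamp2, and the match begins at -97 and -94 from the start site. Within 250 bases upstream on either strand, these letters occurred in 7.02% of all promoters, in 6 of 27 acute phase genes and in 3 of 13 male-biased genes. Counted per gene, they occurred in 7.28% of measured genes, 8.56% of at least 2-fold higher genes and 9.21% of lower genes.

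Markers of neutrophils were higher with canertinib as a group; Lcn2, which hepatocytes also make, is 1 of them. Of 15 markers on the array 13 were measured, of which 9 were at least 2-fold higher and 0 lower. Within 2-fold of chow were Mpo, Cxcr2, Mmp8 and Mmp9, with log2 differences of 0.65, 0.43, 0.22 and -0.01. Camp and Ctsg were not measured. The calprotectin genes were below the floor on the other 2-month arrays. S100a8 had 188, 122 and 4776 on chow, fast food and canertinib, and S100a9 had 171, 196 and 3146, so S100a8 was at least 21.6-fold and S100a9 at least 14.2-fold higher. The granule protease genes Prtn3, with 105, 64.6 and 3121, and Elane, with 267, 669.9 and 1337, were higher, Prtn3 by at least 14.1-fold and Elane by 5.01-fold. Without Lcn2, which the acute phase list also holds, the 12 other measured markers had summed signals of 4564 on chow, 5025 on fast food and 21519 with canertinib, and 8 of them were at least 2-fold higher. Of the 15 markers, 8 were above the floor on chow and 13 with canertinib. Some thus counted as measured only through the canertinib array, so these counts and sums favour higher values there. When only genes above the floor on both arrays were kept, the median of the whole list was 0.86 in place of 1.91. In pooled tissue RNA, more or fewer cells of a type and more or less RNA per cell cannot be told apart.

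Kupffer cell markers were higher as a group on the fast-food and on the canertinib array. Of 14 resident Kupffer cell markers, 8 were at least 2-fold higher than chow with canertinib and 6 with the diet alone, with medians of 1.22 and 0.77. The summed signal of these markers was 22444 on chow, 40890 on fast food and 51518 with canertinib. The complement gene C1qa had 878, 3925 and 4707 on the chow, fast-food and canertinib arrays, and the macrophage survival factor gene Cd5l had 1897, 6572 and 8498, so the canertinib liver stayed 5.36-fold and 4.48-fold above chow. Marco, a scavenger receptor, stood out from these, with 100.1, 277 and 1759 and at least 7.94-fold more transcript. Genes of recruited and lipid-associated macrophages had a median of 1.29 with canertinib and 0.68 with the diet alone. With canertinib 10 of 18 were at least 2-fold higher, and with the diet alone 6 were higher and 1 lower by as much. The higher ones with canertinib included Cd14, the lipopolysaccharide co-receptor, with 2.08, and the galectin gene Lgals3 with 1.99. Below chow were 2, Ccr2 with -0.25 and Itgax with -0.06, and Trem2, Gpnmb, Itgam and Mmp12 were not measured.

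The MHC class II list, whose products serve antigen presentation on macrophages and B cells, had 8 measured members, with 3 above chow and 5 below it. Past 2-fold were 1 higher, the protease gene Ctss with 1.40, and 1 lower, H2-Ab1. The class II genes H2-Ab1, with 1505, 2427 and 499 on chow, fast food and canertinib, and Cd74, the invariant chain, with 1516, 3243 and 792, were higher than chow on the diet and lower than chow with canertinib. H2-Ab1 was 3.02-fold lower by its brightest probe set, a log2 difference of -1.59, but -0.67 averaged over its probe sets, and Cd74 had -0.94. The median of the list was -0.54. When probe sets prone to cross-hybridisation were left out, H2-Aa, H2-Ab1 and Cd74 had no value, and the median of the 5 genes left was 0.04. Interferon-stimulated genes were close to chow, with a median of -0.04, 0 of 20 at least 2-fold higher and 1, the immunoproteasome gene Psmb9 with -1.07, lower. Psmb9 had -0.99 against the 5-month chow array. T and NK cell markers had 1 of 9 higher, the cytotoxic granule gene Nkg7 with a bound of 2.07. Of 10 B and plasma cell markers, 2 were higher, Jchain with a bound of 1.47 and Ighm with 1.16, and 1, the B cell factor gene Pax5 with -1.02, was lower. Ighm had 0.02 when cross-hybridising probe sets were left out, and Pax5 had -0.31 averaged over its probe sets.

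Male-biased liver genes were the list with the lowest median among the 52 examined. All 17 measured members were lower than chow in some amount, 13 of them at least 2-fold, with a median of -2.49. On the fast-food array 5 were at least 2-fold lower and the median was -0.80. The fatty acid hydroxylase gene Cyp4a12a had 9852, 7229.7 and 170.2 on chow, fast food and canertinib and was below the floor with canertinib, at least 44.5-fold lower. Hsd3b5, a steroid-metabolising enzyme of male liver, had 9458, 897 and 10.6 and was at least 42.7-fold lower, and it was already low on the diet alone. Cyp7b1, which hydroxylates oxysterols and steroids, had 15143, 2451 and 1097 and was 13.8-fold lower. Its log2 difference was -2.52 averaged over its probe sets in place of -3.79. Elovl3, an elongase of very long fatty acids, had 6135, 6974 and 488 and was 12.6-fold lower, near chow with the diet. Slco1a1, an organic anion importer, had 8439, 4797 and 1023 and was 8.25-fold lower. The major urinary protein genes, a multigene family whose copies the probe sets may not separate, were low as well, with Mup10 at 4719, 2708 and 219.6 and Mup3 at 26344, 21255 and 3959.9.

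Female-biased genes were higher in part. Of 13 measured members, 6 were at least 2-fold higher and 0 lower, with a median of 0.88 and a mean of 1.34. Sult1e1, the oestrogen sulfotransferase, had 13.9, 147 and 3603 on chow, fast food and canertinib and was at least 16.3-fold higher. Cyp17a1, the steroid 17alpha-hydroxylase and lyase, had 650.3, 1635 and 13553 and was 20.8-fold higher. The flavin monooxygenase gene Fmo2 had 266, 321 and 1643 and was 6.17-fold higher, and all 5 of its measured probe sets shared the direction. Cyp2b9 had 349.7, 1343 and 1366, so its excess over chow was alike with and without canertinib. Of 16 growth hormone and IGF genes, 4 were 2-fold or more higher and 0 lower, namely Igfbp1, Socs2, Socs3 and the transducer Stat5b with 1.01. Stat5b had 0.38 averaged over its probe sets and 0.57 against the 5-month chow array. Igfbp1, the IGF binding protein that insulin represses, had 2891, 5029 and 59873 and was 20.7-fold higher. Socs2, a STAT5-induced feedback inhibitor, had 821, 279 and 3577 and was 4.36-fold higher, although the mean over its probe sets was 0.79. Ghr, the growth hormone receptor, had -0.43 and Igf1 had 0.29.

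**Figure D2:**
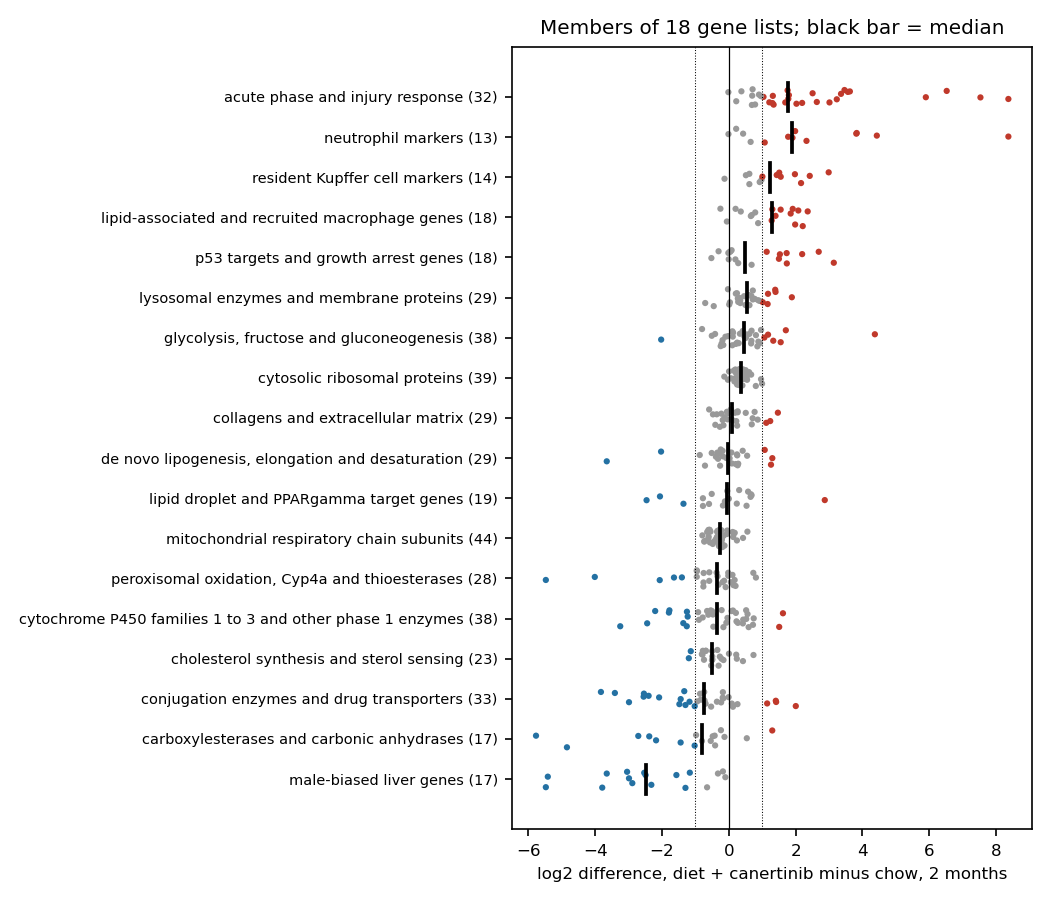
Each point is a measured gene at its log2 difference between the 2-month canertinib and chow arrays (horizontal), in 18 lists (number of measured genes in parentheses); black bars are medians, dotted lines mark 2-fold, red and blue mark genes past it. Acute phase genes have a median of 1.77, and every male-biased gene lies below 0.

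Enzymes of drug and xenobiotic metabolism had more lower than higher members past 2-fold. Among phase 1 enzymes 9 of 38 were at least 2-fold lower and 2 higher, against 0 lower with the diet. The aldehyde oxidase gene Aox3 had 15229, 8874 and 1602 on chow, fast food and canertinib and was 9.51-fold lower, and Cyp1a2, which metabolises caffeine, had 13142, 6743 and 3835 and was 3.43-fold lower. Cyp3a11, the main mouse CYP3A drug oxidase, had 50153, 44529 and 21372 and was 2.35-fold lower, whereas Cyp2c70, which makes muricholic acids, had 20844, 22395 and 64130.1 and was 3.08-fold higher. The list median of -0.34 was -0.19 when the probe sets of each gene were averaged.

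Conjugation enzymes and transporters had 13 of 33 members at least 2-fold lower and 4 higher, with a median of -0.74. Sult2a8, a bile acid sulfotransferase, had 19753, 11615 and 1392 on the 3 arrays and was 14.2-fold lower. The glutathione transferase Gsta4, which clears lipid peroxidation products, had 2352, 1453 and 73.2 and was at least 10.6-fold lower. Ugt2b1, a glucuronosyltransferase, had 23495, 17243 and 2964 and was 7.93-fold lower. Opposite to these, Nnmt, the nicotinamide N-methyltransferase, had 2892, 2559 and 11612 and was 4.02-fold higher. Targets of the antioxidant factor NRF2 overlap with these enzymes, and 6 of 25 were at least 2-fold lower with 0 higher. Gclc, the catalytic subunit for glutathione synthesis, had 4779, 6124 and 1101 and was 4.34-fold lower, but Osgin1 was low on both arrays, with 1719, 409 and 351.

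The carboxylesterase and carbonic anhydrase list held the gene farthest below chow among genes above the floor on both arrays. Car3, an abundant carbonic anhydrase of hepatocytes and fat, had 54907, 56907 and 1006 on chow, fast food and canertinib and was 54.6-fold lower. Its 4 measured probe sets shared the direction, and their averaged log2 difference was -3.50. Ces1f, which hydrolyses esters of drugs and lipids, had 11151, 8558 and 388 and was 28.7-fold lower. Ces2a had 9445, 2550.0 and 1445, low with the diet and 6.54-fold below chow with canertinib. In all 7 of 17 members were at least 2-fold lower and 1, Car2 with 1.30, was higher. Some esterase copies are near identical, so their probe sets may overlap.

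Several fatty acid oxidation genes were lower with canertinib than in chow liver. Of 28 peroxisomal, Cyp4a and thioesterase genes 5 were at least 2-fold lower and 0 higher, with a median of -0.35. Acaa1b, the peroxisomal thiolase, had 32064, 55893 and 1989.6 on chow, fast food and canertinib, so it was above chow on the diet and 16.1-fold below chow with the drug. Crot, which exports medium-chain acyl groups from peroxisomes as carnitine esters, had 10293, 8795 and 2456 and was 4.19-fold lower. Its log2 difference was -1.46 averaged over its probe sets in place of -2.07. Ehhadh, the peroxisomal bifunctional enzyme, had 4906, 6209.8 and 1574 and was 3.12-fold lower. Mitochondrial oxidation and ketogenesis genes had 3 of 23 at least 2-fold lower and 1 higher. The ketone body dehydrogenase gene Bdh1 had 4100.1, 6964 and 1417, and the carnitine palmitoyltransferase gene Cpt2 had 4893, 4444 and 2377, 2.89-fold and 2.06-fold lower than chow. Respiratory chain subunits had 37 of 44 members lower in some amount, but none at least 2-fold, and the median was -0.28. Of all measured genes 51.7% were lower in some amount.

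Lipid synthesis and storage genes, known for their rise in fatty liver, had medians near chow on the canertinib array, with single members well above and well below it. Lipogenesis genes had a median of -0.03 with canertinib against 0.59 with the diet alone, and 3 of 29 were at least 2-fold higher and 2, Elovl3 and Me1, lower, against 10 higher and 0 lower with the diet. Lipogenesis genes ranged from -3.65 to 1.30 with canertinib. Genes of lipid droplets and targets of PPARgamma had a median of -0.04 with canertinib and 0.72 with diet alone, and 1 of 19 was at least 2-fold higher with canertinib and 3 lower, in a range of -2.46 to 2.87. These comparisons share the chow array. Acacb, whose product makes the malonyl-CoA that restrains mitochondrial oxidation, had 449.7, 2037 and 1079.7 on chow, fast food and canertinib and was 2.4-fold above chow. The log2 difference of Acacb, 1.26, was 0.25 against the 5-month chow array and 0.63 averaged over its probe sets. Me1, the NADPH-producing malic enzyme, had 12184, 18982 and 2989 and was 4.08-fold lower than chow. Plin2, the main coat protein of hepatocyte lipid droplets, had 13542, 33658 and 5289, and G0s2, an inhibitor of the lipase ATGL, had 1452, 3300.2 and 348. They were 2.56-fold and 4.17-fold below chow after being above it on the diet. Fabp4, the adipocyte and macrophage fatty acid binding protein, had 342, 1055 and 2503 and was 7.33-fold higher, but 0.28 in log2 when cross-hybridising probe sets were left out. Lipoprotein lipase, Lpl, which adult liver normally makes little of, had 1371, 1991 and 6360.1 and was 4.64-fold higher. Pparg itself was below the floor on both arrays compared and was not counted as measured.

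Apolipoprotein A4 remained high. Apoa4, a protein of triglyceride-rich lipoproteins, had 1454, 32842 and 27112 on chow, fast food and canertinib and was 18.7-fold higher, and both of its probe sets shared the direction. The lipoprotein list had 3 of 23 members 2-fold or more higher and 1, the endothelial lipase gene Lipg with -1.48, lower, and Lipg had -0.87 averaged over its probe sets. The median of 0.44 shrank to 0.06 after quantile normalization. Cholesterol synthesis genes stayed lower than chow, with a median of -0.49 against -0.72 with the diet alone. At least 2-fold lower were 2 of 23 members, Idi1, the isopentenyl diphosphate isomerase, with 5508, 788 and 2504 on the 3 arrays, and Sc5d, a late sterol desaturase, with 17872, 13733 and 7799. In bile acid synthesis, Cyp8b1, the 12alpha-hydroxylase that makes cholic acid, had 10886, 11591 and 905 and was 12-fold lower. Cyp7a1, the rate-limiting enzyme, had 6082, 4294 and 9864 and a log2 difference of 0.70, and Cyp39a1, an oxysterol hydroxylase, had 413, 396 and 2191 and was 5.31-fold higher. Of 26 bile acid genes 4 were at least 2-fold lower and 1 higher.

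Growth arrest and glucose genes past 2-fold were more often higher than lower. The p53 target and growth arrest list had 8 of 18 members higher by 2-fold or more and 0 lower, with a median of 0.48 that was 0.20 among genes above the floor on both arrays. Ddit4, an inhibitor of mTORC1 signalling, had 268, 469 and 2368 on chow, fast food and canertinib and was 8.83-fold higher. Cdkn1a, the cell cycle inhibitor p21, had 911, 866 and 3038 and was 3.33-fold higher, and Gadd45g had 95, 211 and 1431 and was at least 6.46-fold higher. Glycolysis, fructose and gluconeogenesis genes had 6 of 38 at least 2-fold higher and 1 lower. Irs2, an insulin receptor substrate, had 406, 339 and 1325 and was 3.27-fold higher. Txnip, which limits glucose uptake, had 3354, 2150.1 and 825 and was 4.07-fold lower. Phgdh, the first enzyme of serine synthesis, had 4871, 4081 and 656 by its brightest probe set and was 7.42-fold lower, whereas its -0.83 averaged over probe sets was smaller in size. Among amino acid genes Got1, the cytosolic aspartate aminotransferase, had 7229, 7436 and 24397 and was 3.37-fold higher.

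The target of the drug was near chow level at the transcript. Egfr had 7035, 2626 and 6350.4 on chow, fast food and canertinib, a log2 difference of -0.15 from chow, against -1.42 with the diet alone, and 3 of its 6 measured probe sets shared the sign. None of the 11 measured ERBB receptor and ligand genes was at least 2-fold different, the ligand gene Epgn being nearest with a bound of 0.98, or 1.16 with the floor at the 40th percentile. ERK feedback and immediate early genes had 3 of 26 higher and 0 lower. The higher ones were Ier3, Junb and Klf6, with 1.78 as a bound, 1.61 and a bound of 1.17. Klf6 had 0.25 averaged over its probe sets, and Junb had 0.83 against the 5-month chow array. The cyclin D1 gene Ccnd1, a growth factor target, had 2092, 3364 and 1066 and a difference of -0.97. Among 16 clock genes Dbp, an output factor, had 5117, 2909 and 926 and Nr1d1, the REV-ERBalpha repressor, had 1508, 1184 and 396. These were 5.52-fold and 3.81-fold lower, and 1, Nfil3 with 1.08, was at least 2-fold higher. The time of day of collection was not given among the labels.

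Several groups differed by smaller amounts. Ribosomal protein genes were higher in 37 of 39 cases, with a median of 0.36, and none was counted as at least 2-fold higher, where 48.3% of all measured genes were higher in some amount. Lysosomal genes had 6 of 29 at least 2-fold higher, among them the asparaginyl protease Lgmn with 1.89 and progranulin, Grn, with 1.39, and a median of 0.55. Coagulation genes had 5 of 24 higher, such as the protein Z-dependent inhibitor Serpina10 with 1.70, and their median of 0.60 was 0.27 after quantile normalization. Matrix genes had a median of 0.08 against 0.32 with the diet alone. Among 29 of them 3 were 2-fold or more higher, fibronectin, Fn1, with 1.47, the basement membrane collagen Col4a1 with 1.24 and decorin, Dcn, with 1.12. Fn1 had 0.89 after quantile normalization and 0.88 against the 5-month chow array, and Dcn had 0.62 averaged over its probe sets. Stellate cell markers had 3 of 11 at least 2-fold higher and 3 below chow in some amount, with medians of 0.24 with canertinib and 0.42 with the diet alone. Endothelial markers had 4 of 17 at least 2-fold higher and 6 below chow in some amount, with medians of 0.28 and 0.23. The pericyte gene Rgs5 had 2.13, or 1.21 averaged over its probe sets. The sinusoidal scavenger receptor Stab2 had 1.24, whereas the endothelial marker Ehd3 had -0.91. Heat shock genes had 2 of 18 lower, Hspa1b by 4-fold and Hspb1 by 2.16-fold, with log2 differences of -0.90 and -0.20 against the 5-month chow array.

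The remaining marker lists covered other cells of the liver and its surroundings. Hepatocyte markers had a median of 0.25, with 1 of 25, the factor Cebpb with 1.21, 2-fold or more higher and 1, Foxa1 with -1.63, lower. These shares of 4% each way were near the 4.06% higher and 2.93% lower of all measured genes. Where a list below has only 1 or 2 genes past 2-fold, that is too few to set apart from those shares. Of ductular markers 5 were measured, with the adhesion genes Epcam at 1.29 and Cdh1 at -1.98, and Epcam had 0.55 against the 5-month chow array. Adipocyte markers had 1 of 3 higher, Fabp4, acinar markers 1 of 7, the elastase gene Cela2a with a bound of 1.05, and muscle markers 0 of 4. Erythroid markers had 2 of 6 higher, Tfrc and the anion exchanger Slc4a1 with a bound of 1.08, or 0.36 averaged over its probe sets. Complement genes had 5 of 21 higher and 0 lower, including C1qa and C1qc, with 1.98, which macrophages make. Among 12 chemokine genes Ccl6 had a bound of 2.36 and Cxcl16 had -1.53, but Cxcl16 had -0.76 averaged over its probe sets and -0.39 against the 5-month chow array. Cell cycle genes had 2 of 18 higher, Rrm2 with 1.24 and Ccna2 with a bound of 1.23. Ccna2 had -0.22 against the 5-month chow array, and Rrm2 had 0.68 averaged over its probe sets and 0.27 without cross-hybridising ones. Stress genes of the endoplasmic reticulum had 2 of 33 lower, Trib3 with a bound of -1.48, or -0.57 averaged over its probe sets, and Derl3 with a bound of -1.45, and no proteasome gene among 32 was past 2-fold.

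Beside the fast-food array, 3 patterns could be seen in single genes, chosen for the pattern and therefore described only. Genes different from chow on both arrays included Apoa4, C1qa and Saa1 on the higher side and Cyp7b1, Osgin1, Ces2a and Lifr on the lower side. Lifr, the leukaemia inhibitory factor receptor, had 8598, 2366 and 2315 on chow, fast food and canertinib. The log2 difference of Lifr with canertinib was -1.89, but -1.28 averaged over its probe sets and -1.23 against the 5-month chow array. St3gal6, a sialyltransferase, also belonged here with 651, 9706 and 14878, but this came from 1 probe set. St3gal6 had 4133 on the 5-month chow array, and its log2 difference was 0.49 without cross-hybridising probe sets. Genes within 0.32 of chow in log2 on the diet and different with canertinib were led by Apcs, Fmo2, Cyb561 and Cyp39a1 on the higher side. Cyb561, a transmembrane ascorbate-dependent reductase, had 312, 344 and 1867. Car3, Elovl3, Cyp8b1, Phgdh and Retsat led the lower side, and Retsat, a retinol saturase, had 8351, 6940.0 and 1205.

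Other genes differed with the diet and lay within 0.32 of chow in log2 with canertinib. The beta-tubulin gene Tubb2a had 727, 7659 and 624 on chow, fast food and canertinib, and the annexin partner S100a10 had 1839.8, 7450.4 and 1497. Both were high only on the fast-food array of this study. At 5 months the log2 difference with canertinib from chow was 0.89 for Tubb2a and -0.12 for S100a10. Against the 5-month chow array the 2-month canertinib value of Tubb2a was -1.21. Col3a1, a fibrillar collagen of scar tissue, had 863, 3035 and 761, and the lipid droplet coat gene Plin4 had 677, 2272 and 799. The transcriptional coactivator gene Ppargc1b had 1468, 233 and 1317, low on the diet alone, and so had Il1f10, a cytokine of the interleukin-1 family, with 831, 265 and 811. The canertinib values of these 6 genes were between 624 and 1497, and their chow values between 677 and 1839.8. With the diet alone at 5 months, Ppargc1b had a log2 difference of -3.13, but Il1f10 had 0.01.

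**Figure D3:**
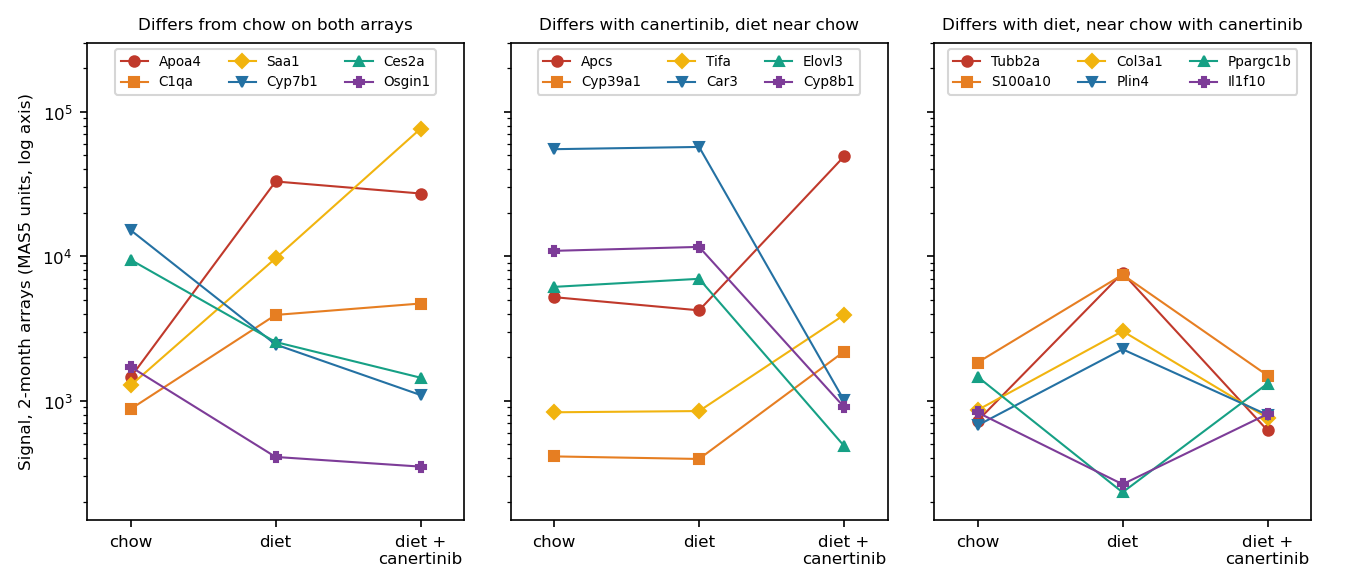
Signals (vertical, log axis) of 18 genes on the 2-month chow, fast-food and canertinib arrays (horizontal), in 3 patterns chosen on these same arrays; each point is 1 array. Car3 is nearly level from chow to diet and is 1006 with canertinib, while Tubb2a is 7659 on the diet and 624 with canertinib.

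To ask with other arrays which diet differences were present in the canertinib liver, genes were chosen on the 5-month fast-food and chow arrays and read on the 2-month pair. At 5 months 2.96% of the measured genes were higher with the diet and 1.99% lower. Of 346 such higher genes measured in both comparisons, 93 (26.9%) were at least 2-fold higher with canertinib at 2 months and 15 (4.34%) were lower. Of 241 such lower genes, 45 (18.7%) were at least 2-fold lower with canertinib and 24 (9.96%) higher. Among all 12277 genes measured in both comparisons, 4.09% were higher and 3.05% lower. The median log2 difference with canertinib was 0.44 for the higher set and -0.27 for the lower set. With the diet alone at 2 months, the same genes had medians of 0.55 and -0.37. Of the higher set 28.9% and of the lower set 29.9% lay within 0.32 of chow in log2, against 52.7% of all genes.

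**Figure D4:**
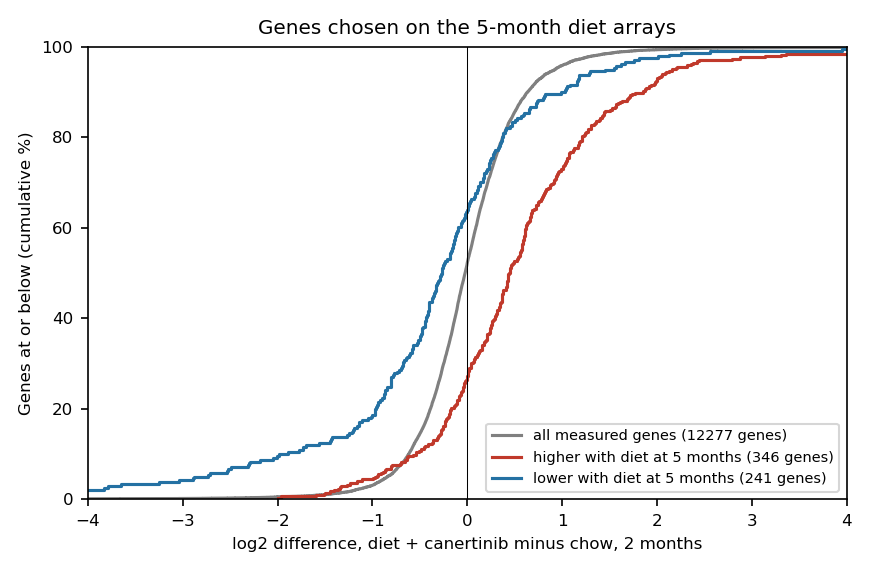
Cumulative percentage (vertical) of genes at or below each log2 difference between the 2-month canertinib and chow arrays (horizontal), for all 12277 genes and for the 346 and 241 genes chosen as higher or lower with the diet at 5 months; the axis is limited to -4 to 4. Above 0 the curve of the higher set lies to the right of all genes, and below 0 that of the lower set lies to the left.

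The 5-month study shares no array with this comparison and tested the same drug by injection for a shorter part of the feeding. With canertinib at 5 months, 3.08% of the measured genes exceeded chow by 2-fold or more and 2.96% were lower. Of 511 genes at least 2-fold higher at 2 months and measured in both studies, 177 were so at 5 months, 34.6% of the 2-month and 46.6% of the 5-month genes, where 3.10% of all 12245 genes were higher at 5 months. Of 376 lower genes, 111 were also lower, 29.5% of the 2-month and 30.2% of the 5-month genes, against 3.00% of all. Several genes with the largest excess at 2 months were also high at 5 months, but St3gal6 had -0.17 and Saa1 2.44. At 5 months Lcn2, Orm2, S100a8 and Mt1 had log2 differences of 6.81, 6.01, 4.75 and 4.23, and Igfbp1 and Cyp17a1 had 4.46 and 4.71. Other genes were less far below chow at 5 months than at 2 months, with -1.72 against -5.77 for Car3, -1.99 against -5.25 for Hamp and -1.52 against -4.01 for Acaa1b. Male-biased genes had a median of -2.17 at 5 months and 14 of 17 lower by 2-fold or more, and acute phase genes 1.45 with 20 of 32 higher. Cholesterol synthesis genes had -0.92 with 11 of 23 lower. Some other lists were nearer chow at 5 months than at 2 months, or on its other side. Metallothionein and zinc transporter genes had a median of 0.25. Female-biased genes had 0.35, with 4 higher and 2 lower by 2-fold or more. Growth arrest genes had 0.09, with 4 higher and 1 lower, and the class II list had 0.16. The diet alone at 5 months gave a bound of -5.73 for Hsd3b5, -3.57 for Cyp7b1 and -2.23 for Slco1a1. With canertinib these had -4.004, -2.72 and -1.11, less far below chow. Cyp4a12a, Elovl3, Ugt2b1 and Ugt2b38 were farther below chow with canertinib. They had -3.37, -2.36, -2.501 and a bound of -2.54, against -1.21, -1.71, -0.73 and -2.41 on the diet alone. Hamp had -1.999 on the diet alone. The part of the drug in these values was not tested. Differences between the studies were not tested.

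**Figure D5:**
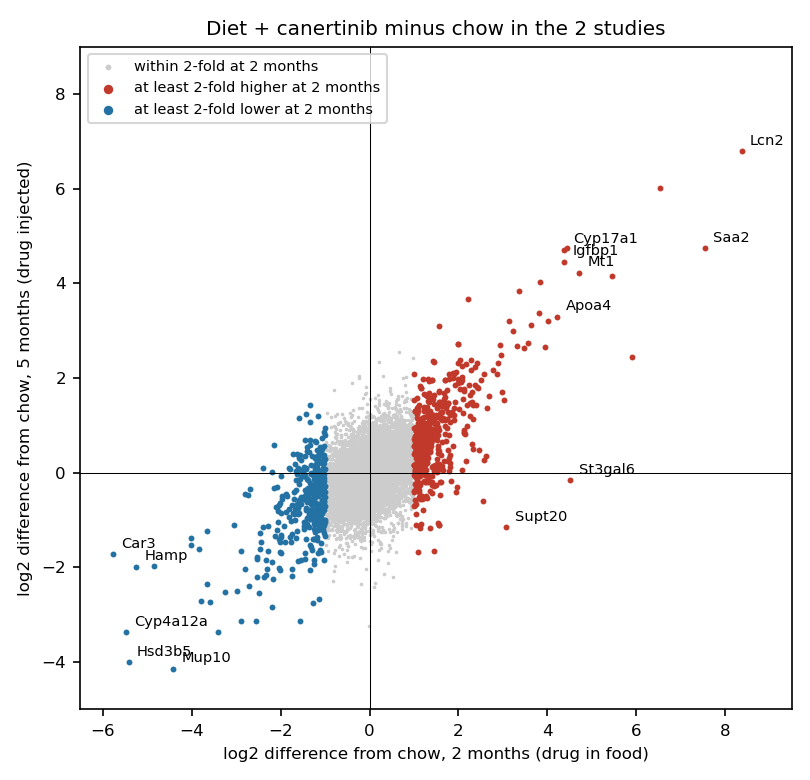
Log2 difference between diet with canertinib and chow at 2 months (horizontal) and at 5 months (vertical) for the 12245 genes measured in both studies; red and blue mark genes at least 2-fold higher or lower at 2 months. Lcn2, Saa2 and Mt1 lie high in both studies, Hsd3b5 and Cyp4a12a low in both, and St3gal6 lies near 0 at 5 months.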

How the data were processed

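Biotin-labelled RNA from the liver pools was hybridised to Affymetrix mouse expression arrays, 1 array per group and 6 in all. Per the submitters' processing notes, the authors deposited MAS5 signal intensity values (version not given in the sources used here). On every array those deposited intensity values average 500 once 2% of probe sets at each end are set aside. Of 45101 probe sets, 34958 had 1 gene symbol in the platform annotation, 932 several and 9211 none, and symbols were updated by Entrez identifier. Each gene was represented by its probe set with the highest mean signal. Signals were raised to the floor, log2 transformed and subtracted between single arrays. List medians include genes at the floor at their bound. Arrays have no read depth.

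Counts and medians of 52 gene lists, with 1176 of 1326 entries on the array, are given without a test. They are to be read beside the 4.06% of all measured genes that were at least 2-fold higher and the 2.93% lower. Several lists had counts near those shares. The lists, the rule for named genes and the comparison were chosen with earlier results of these data known. Named genes are the 12 largest differences each way above the floor, the 6 largest from or to the floor, the 4 largest of each list described, the 6 largest each way of 3 patterns and 6 fixed genes. Examples outside this rule, which are Car2, Cyp1a2, Cyp2c70, Cyp3a11, Elane, Fgb, Ghr, Hp, Igf1, Il1r1 and Nnmt, were chosen after values were seen. Alternatives were quantile, loess and median scaling, other floors, probe set rules, thresholds, the mean, and the 5-month chow array as reference. The counting was tested on simulated data. Python 3.11.15, NumPy 2.4.6, SciPy 1.17.1, pandas 2.3.3 and matplotlib 3.10.9 were used, and R 4.3.3 with limma 3.58.1 for loess.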

Additional observations from a re-analysis of the deposited data

Results flagged for a closer look

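Between the studies 15 measured genes were at least 2-fold different from chow in opposite directions, which was not tested, and each direction rests on 1 array per group. They are 1.69% of the 887 genes that were at least 2-fold different at 2 months and measured in both studies, where 3.10% of all genes were higher and 3.00% lower at 5 months. For 11 of the 15 the chow arrays themselves were at least 2-fold apart, against 2.83% of all measured genes. Examples are Med18, at 1478 and 335.5 in chow liver of 2 and 5 months, and Ptpn9, at 1618.5 and 375.7. The choice of the 15 genes used both chow arrays and so favours genes whose chow signals differ. Their share is therefore not a separate observation. Lower at 2 months and higher at 5 months were Zfp335 with log2 differences of -1.58 and 1.14, Rimklb with -1.42 and 1.249, Depdc5 with -1.34 and 1.07, Med18 with -1.33 and 1.43, and Ptpn9 with -1.16 and 1.19. Higher at 2 months and lower at 5 months were Supt20 with 3.08 and -1.15, 4930500F04Rik with 1.57 and -1.11, Prss29 with 1.56 and -1.11, Sbsn with 1.54 and -1.07, and Myo9b with 1.44 and -1.66. The others were the myeloid receptor gene Cd33 with 1.35 and -1.16, Rrnad1 with 1.16 and -1.09, the growth arrest kinase gene Plk3 with 1.13 and -1.17, Catsperg1 with 1.09 and -1.69, and Pdzd9 with 1.03 and -1.10. For 10 of the 15 at least 1 of these values is a bound, because a signal was at the floor. These genes were chosen after their values were seen.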

How the results depend on the processing

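No paired analysis was possible because each group is 1 array and the labels carry no replicate numbers. Counts of at least 2-fold higher and lower genes were 531 and 383, and stayed within 1.5 times of that under each scaling, the higher floor, the 5-month chow reference and the other rules not named here. With a floor at the 40th percentile lower genes numbered 620. Without a floor they were 1856 and 1536, with 574 and 374 shared with 5 months and a median of -0.0024 for genes lower with the diet at 5 months. Averaging probe sets gave 337 and 228. At 1.5-fold the counts were 1487 and 1412, of which 535 and 454 were shared, and at 3-fold 147 and 105, of which 67 and 38 were shared, with medians of 0.73 and -0.78 for the diet-chosen genes. Leaving out genes that differed between the chow arrays, an alternative chosen after seeing the data, gave 462 and 337. Of 2315 gene values under alternatives, 2052 lay within 0.42 of the main value, which is the SD of log2 differences between the chow arrays. A further 262 moved beyond that. Many of the 2315 values could hardly move. Median scaling shifts all genes alike, and other floors or probe set rules leave bright genes or genes with 1 probe set unchanged. The count of 2052 is therefore not a measure of robustness. A reversal was counted only for genes at least 2-fold different in the main setting. The 1 reversal was the cyclin gene Ccna2 with -0.22 against the 5-month chow array. Smaller differences also changed sign without being counted as reversals. Examples are Ckm, from -0.56 to 0.73 against the 5-month chow array, and Rps3, from 0.67 to -0.28 without cross-hybridising probe sets. Reversals of list medians were counted only where the main median was at least 0.25 in size. Hepatokine genes had -0.0375 after quantile normalization. Class II genes had 0.0352 without cross-hybridising probe sets, where 3 of the lower members had no value. Adipocyte markers had 0.29 without a floor and 0.55 as a mean. The other causes were not tested. Dim genes near the floor have the least certain differences.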

Other observations

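Some large differences fell outside the groups described. Prg4, the gene of the lubricating glycoprotein lubricin, had signals of 1318, 2246 and 10265 on chow, fast food and canertinib and was 7.79-fold higher. Nfkbiz, an inducible NF-kB cofactor, had 219, 360.3 and 1648 and was at least 7.44-fold higher, and Tnfaip3, the NF-kB inhibitor A20, had 40.7, 402 and 915. Fkbp5, a glucocorticoid-induced cochaperone, had 1781, 1316 and 7474 and was 4.2-fold higher. Averaged over probe sets, the log2 differences were 1.71 for Nfkbiz, 1.20 for Tnfaip3 and 1.10 for Fkbp5, in place of 2.90, 2.05 and 2.07. Nat8, an N-acetyltransferase gene, had 3604, 3020.2 and 168 and was at least 16.3-fold lower. Vnn1, the pantetheinase and a PPARalpha target, had 2550.4, 6872 and 653, above chow on the diet and 3.9-fold below it with canertinib. The log2 difference of Vnn1 was -1.28 averaged over its probe sets in place of -1.96. These genes were chosen after their values were seen. The 5-month log2 differences were 2.48 for Prg4, 2.31 for Nfkbiz, 1.92 for Tnfaip3, 1.95 for Fkbp5, -1.38 for Nat8 and -0.49 for Vnn1.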
